A study of Mus musculus with 6 samples.

Results

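The common gamma chain cytokine receptors are represented here by 8 genes, namely Il7r, Il2ra, Il2rb, Il2rg, Il4ra, Il9r, Il15ra and Il21r. They were taken by name from a table of raw read counts that names 23366 genes, and all 8 were found and passed the filter on low counts. The libraries come from CD4+ effector T cells (Teff) that were recovered from mesenteric lymph nodes 6 weeks after T cell transfer; the hosts were Rag deficient, so they lacked lymphocytes of their own and kept innate cells. The cells were sorted on rhodamine 123, a dye that the transporter Mdr1 exports, into Mdr1+ cells (dye low) and Mdr1- cells (dye high), with 3 libraries in each group. The labels give the strain background of all 6 libraries as FVB/N. The groups are fractions of sorted cells, although the labels enter Mdr1+ and Mdr1- in a genotype field, and the labels do not say whether a library is 1 mouse or a pool, and p-values therefore reflect only how much these libraries vary.

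Each of these receptors is built around the gamma chain that Il2rg encodes, which binds the kinase Jak3. In most of them a second, private chain recognises the cytokine and carries Jak1, and the kinase pair then phosphorylates STAT proteins. Interleukin 7 and interleukin 15 keep resting and memory T cells alive, interleukin 2 drives growth of activated T cells, and interleukins 4, 9 and 21 shape effector functions. T cells are known to lower Il7r on activation and to regain it as they return to rest.

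Most of these chains belong to the class I cytokine receptor family, marked by a box of 5 residues next to the membrane known as WSXWS. The stretches below show where the genes share sequence. They were read from the longest annotated coding sequence of each gene (GENCODE M21, build GRCm38), 5′ to 3′, with the 15 bases of the box in capitals and 12 bases on either side in lower case.
Il2rg: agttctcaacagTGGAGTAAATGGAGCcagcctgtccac
Il2rb: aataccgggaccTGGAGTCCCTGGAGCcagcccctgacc
Il7r: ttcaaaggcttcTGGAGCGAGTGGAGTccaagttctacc
Il4ra: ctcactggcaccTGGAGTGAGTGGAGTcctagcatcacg
Il21r: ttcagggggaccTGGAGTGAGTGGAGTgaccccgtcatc
Il9r: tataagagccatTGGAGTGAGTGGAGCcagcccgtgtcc
Each of these 6 coding sequences held 1 box in frame. Il2ra and Il15ra, whose proteins bind cytokine through sushi domains, held 0. Il4ra and Il21r had the same 15 bases in the box, and no other pair of the 8 did.

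The receptor genes split into a strong riser, a strong faller and 6 genes with smaller differences. Il7r, the private chain for interleukin 7, was higher in Mdr1+ cells, and Il9r, the private chain for interleukin 9, was lower, each by more than 2-fold in the fitted change (2.32-fold higher and 2.38-fold lower). With group as the only term in edgeR's quasi-likelihood test, 1 of 8 receptors rose, where 0.275% of all 10897 genes tested did, and 1 of 8 fell, where 1.95% did (2 of 8 in either direction, against 2.22%). With the replicate number added as a block, 4 of 8 rose (Il7r, Il4ra, Il21r and Il2ra), where 5.81% of all genes did, and 1 of 8 fell (Il9r), where 6.57% did. The replicate numbers were taken to pair the libraries because libraries with the same number deviated together. In the fit with group only, the median log2 fold change, Mdr1+ over Mdr1-, was 0.44 over the 8 receptors and 0.04 over all genes tested. Of the 8, 7 were above 0.

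**Figure D1:**
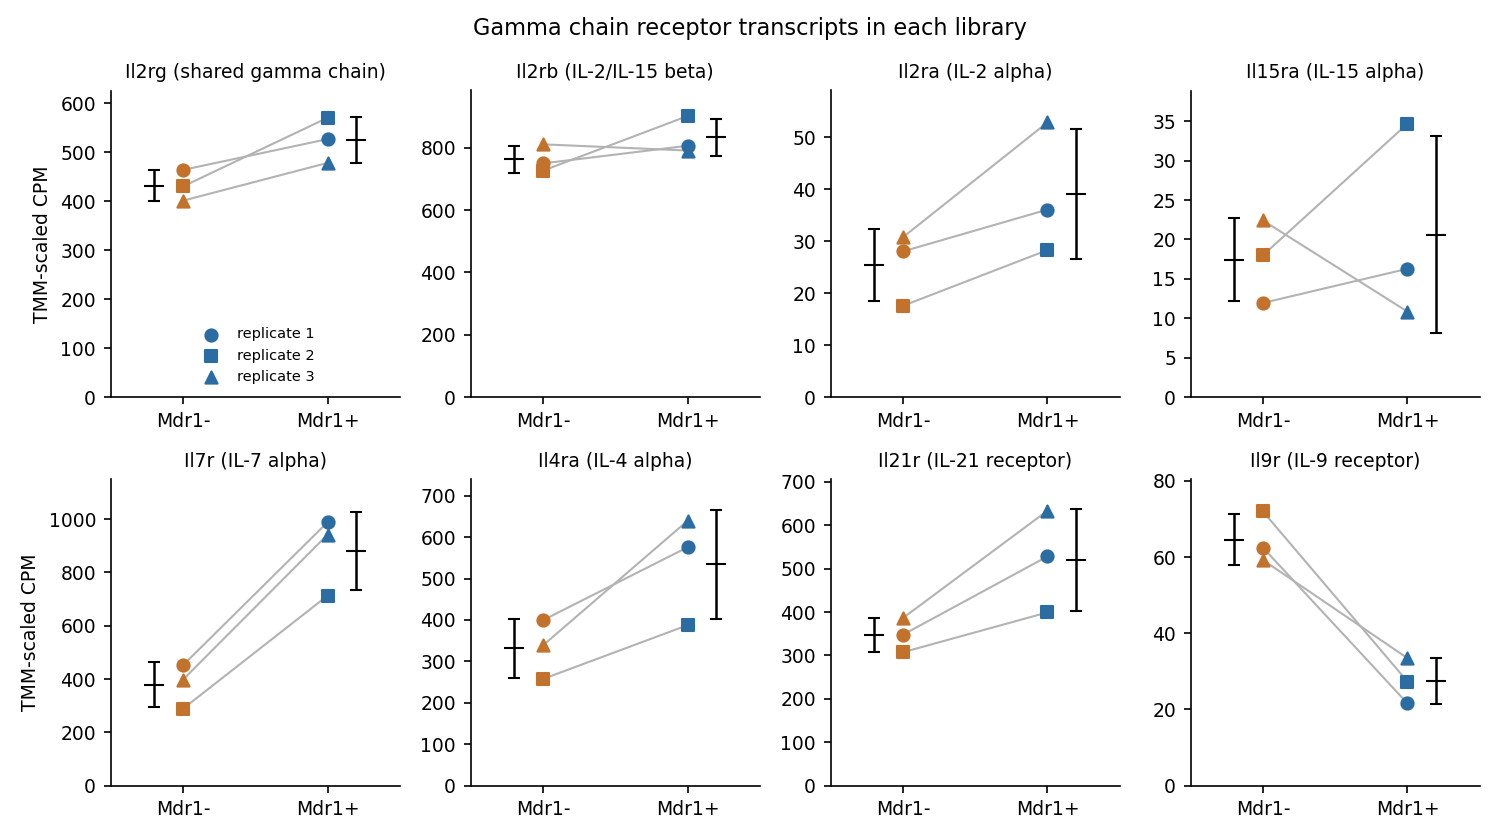
TMM-scaled CPM (linear y axes from 0) of the 8 receptor genes in the Mdr1- and Mdr1+ libraries (x axis); symbols are libraries by replicate number, grey lines join the same number, and black marks show mean ± SD over the 3 libraries. Il7r lies between 289 and 452 CPM in Mdr1- and between 713 and 988 CPM in Mdr1+ libraries, Il9r runs the other way, and Il15ra has no common direction.

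Il2rg, the shared chain, was at 464, 430.1 and 401 CPM in Mdr1- replicates 1, 2 and 3 and at 527, 570.2 and 478 CPM in the Mdr1+ replicates (CPM, the read count scaled by library size and TMM factor, as throughout). The lowest Mdr1+ library stood just above the highest Mdr1- library. Its log2 fold change was 0.28 ± 0.16 (standard error, as for all fold changes below), with a 95% interval from -0.08 to 0.65 (adjusted p = 0.566), and with the block it narrowly missed the threshold (adjusted p = 0.0566), which it passed there only without replicate 3 (adjusted p = 0.0358). A rise of up to 1.57-fold therefore lay within its interval. Il2rb, the signalling chain shared by the receptors for interleukin 2 and interleukin 15, was at 750.0, 727 and 811 CPM in Mdr1- and 807, 902 and 791 CPM in Mdr1+ libraries. The groups overlapped, and the log2 fold change of 0.13 ± 0.16 (interval -0.23 to 0.49) passed in neither fit (adjusted p = 0.818, and 0.385 with the block).

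The alpha chains that complete the high-affinity receptors for interleukin 2 and interleukin 15 were scarce. Il2ra, also called CD25, was at 28.0, 17.6 and 30.7 CPM in Mdr1- and 36.1, 28.3 and 52.8 CPM in Mdr1+ libraries. The groups overlapped, but the Mdr1+ library was higher in each pair of the same number, by 1.29-, 1.61- and 1.72-fold. With group only the difference missed the threshold (0.60 ± 0.30, adjusted p = 0.494), and with the block it passed narrowly (0.61 ± 0.16, adjusted p = 0.0428) but not without replicate 1 or replicate 2 (adjusted p = 0.147 and 0.242). Foxp3, the defining factor of regulatory T cells that carry much Il2ra, had 0 to 5 counts in each library (at most 0.35 CPM).

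Il15ra was at 11.9, 18.0 and 22.4 CPM in Mdr1- and 16.3, 34.7 and 10.8 CPM in Mdr1+ libraries. The highest and the lowest value were both in Mdr1+ libraries. The lowest of them rests on 23 counts. The ratios within numbers were 1.36, 1.93 and 0.484, and the log2 fold change of 0.30 ± 0.42 (interval -0.65 to 1.25) passed in neither fit (adjusted p = 0.841, and 0.652 with the block). Without the Mdr1+ library of replicate 2 its sign turned (-0.33, adjusted p = 0.713). With the block and without replicate 3 it passed (0.71, adjusted p = 0.0155), so no direction can be given for Il15ra.

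Il7r was at 452, 289 and 398 CPM in Mdr1- and 988, 713 and 942 CPM in Mdr1+ libraries (means 379 ± 83.1 and 881 ± 148, SD, n = 3 each). Every Mdr1+ library exceeded every Mdr1- library, and the ratios within numbers were 2.19, 2.47 and 2.37. The log2 fold change of 1.22 ± 0.22 passed (adjusted p = 0.0254, and 8.37e-05 with the block). Among the 30 genes that rose without the block, Il7r had the highest average level and was 20th by fold change. The call without the block was lost without the Mdr1- library of replicate 2 or 3 (adjusted p = 0.0554 and 0.136) or of Mdr1+ replicate 1 or 3 (0.0562 and 0.0756). It was also lost without number 1 or 3 in both groups (0.0813 and 0.319). With the block it passed without each number in turn (adjusted p = 8.11e-11 to 0.000299, against 8.37e-05 with all numbers). Blocked fits with a number left out have few libraries from which to estimate spread, and they lean on variance shared across genes. Passing in them is therefore weak support.

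Il4ra, which pairs with the gamma chain to bind interleukin 4, was at 399, 258 and 339 CPM in Mdr1- and 576, 387 and 639 CPM in Mdr1+ libraries. One Mdr1+ library lay below the highest Mdr1- library, so the groups overlapped. Il4ra was higher in each pair, by 1.44-, 1.505- and 1.89-fold, and passed only with the block (0.69 ± 0.24, adjusted p = 0.277, against 0.67 ± 0.10, adjusted p = 0.00283). Il21r, the private chain for interleukin 21, was at 348, 307 and 386 CPM in Mdr1- and 528, 399 and 634 CPM in Mdr1+ libraries. Its groups did not overlap, and its ratios within numbers were 1.52, 1.30 and 1.64. It too passed only with the block (0.58 ± 0.21, adjusted p = 0.282, against 0.56 ± 0.09, adjusted p = 0.00491). With the block, Il4ra and Il21r also passed without each replicate number in turn, with log2 fold changes of 0.53 to 0.72 and 0.46 to 0.66. The limit given for such fits of Il7r applies here too.

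Il9r was the 1 receptor that was lower in Mdr1+ cells. It stood at 62.5, 72.0 and 59.3 CPM in Mdr1- and 21.6, 27.3 and 33.5 CPM in Mdr1+ libraries (means 64.6 ± 6.6 and 27.5 ± 5.9, SD, n = 3 each). The groups were far apart, and the ratios within numbers were 0.346, 0.38 and 0.565. The log2 fold change of -1.25 ± 0.21 passed (adjusted p = 0.0191, and 0.00183 with the block). Its ligand gene Il9 had 0 counts in all 6 libraries. Mast cells also express Il9r, and 6 marker genes of mast cells, basophils and eosinophils summed to 0 to 0.17 CPM in Mdr1+ and 0 to 0.09 CPM in Mdr1- libraries, with 4 of them (Fcer1a, Ms4a2, Mcpt4 and Prg2) at 0 in all 6 libraries. The part of other cell types in the Il9r values was not tested. The call without the block was lost without the Mdr1- library of replicate 2 or 3 (adjusted p = 0.0604 and 0.084) or of Mdr1+ replicate 1 or 2 (0.0581 and 0.0569). It was also lost without each number in both groups (0.145 to 0.178). With the block it passed without each number in turn (adjusted p = 0.000408 to 0.000984), with the limit given for such fits of Il7r.

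**Figure D2:**
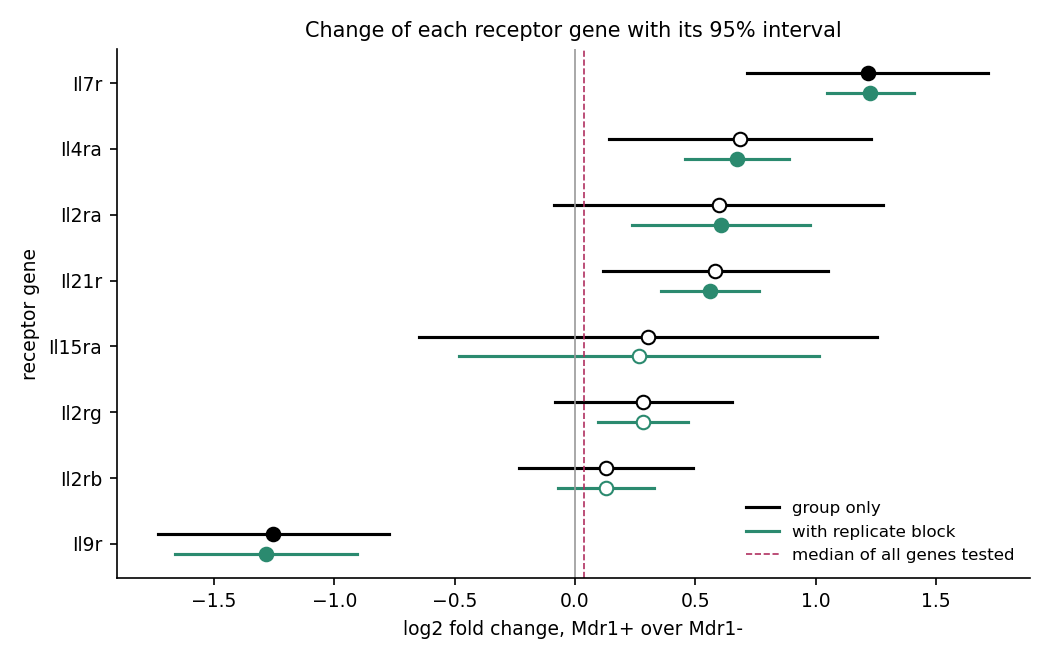
Log2 fold change of Mdr1+ over Mdr1- (x axis) for each receptor gene (y axis), with 95% intervals, in the fit with group only (black) and with the replicate block (green); filled symbols have an adjusted p under 0.05 over all genes, and the dashed line is the median of all genes tested (0.04). Il7r and Il9r are filled in both fits, Il4ra, Il2ra and Il21r only with the block, and Il15ra has the widest interval.

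The receptors that rose with the block, of which Il7r also rose without it, shared a pattern between replicates. Il7r, Il2ra, Il4ra and Il21r each had their lowest value of each group in replicate 2, so the spread within a group was largely the spread between numbers. That was so for 4 of 8 receptors and for 2603 of the 10897 genes tested (23.9%). Il2rb, Il2rg, Il9r and Il15ra did not show it. A fit with the block favours genes whose spread follows the replicate number. A replicate pattern in receptors picked by that fit is therefore partly set by the choice. Without the block, 3 receptors had higher values in every Mdr1+ than in any Mdr1- library (Il7r, Il2rg and Il21r), where 8.71% of all genes tested did, and 1 had lower values (Il9r), where 11.0% did (4 of 8 in either direction, against 19.7%).

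Setting each other receptor gene against Il2rg in the same library removes any scaling between libraries. Il7r stood at 0.974, 0.671 and 0.992 counts per count of Il2rg in Mdr1- and at 1.88, 1.25 and 1.97 in Mdr1+ libraries. Its groups did not overlap. Il9r stood at 0.135, 0.167 and 0.148 in Mdr1- and at 0.041, 0.0479 and 0.07 in Mdr1+ libraries, again with no overlap. The ratio of Il2rb to Il2rg ranged from 1.62 to 2.02 in Mdr1- and from 1.53 to 1.65 in Mdr1+ libraries. The ratios for Il4ra (0.599 to 0.861 against 0.679 to 1.34), Il21r (0.715 to 0.963 against 0.70 to 1.33), Il2ra (0.0408 to 0.0766 against 0.0496 to 0.11) and Il15ra (0.0257 to 0.0559 against 0.0227 to 0.0608) overlapped, as did those for Il2rb. Il7r and Il9r were thus the 2 receptor genes whose ratio to Il2rg separated the groups. These ratios are counts without correction for gene length and describe differences between libraries, not amounts of one chain against another.

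**Figure D3:**
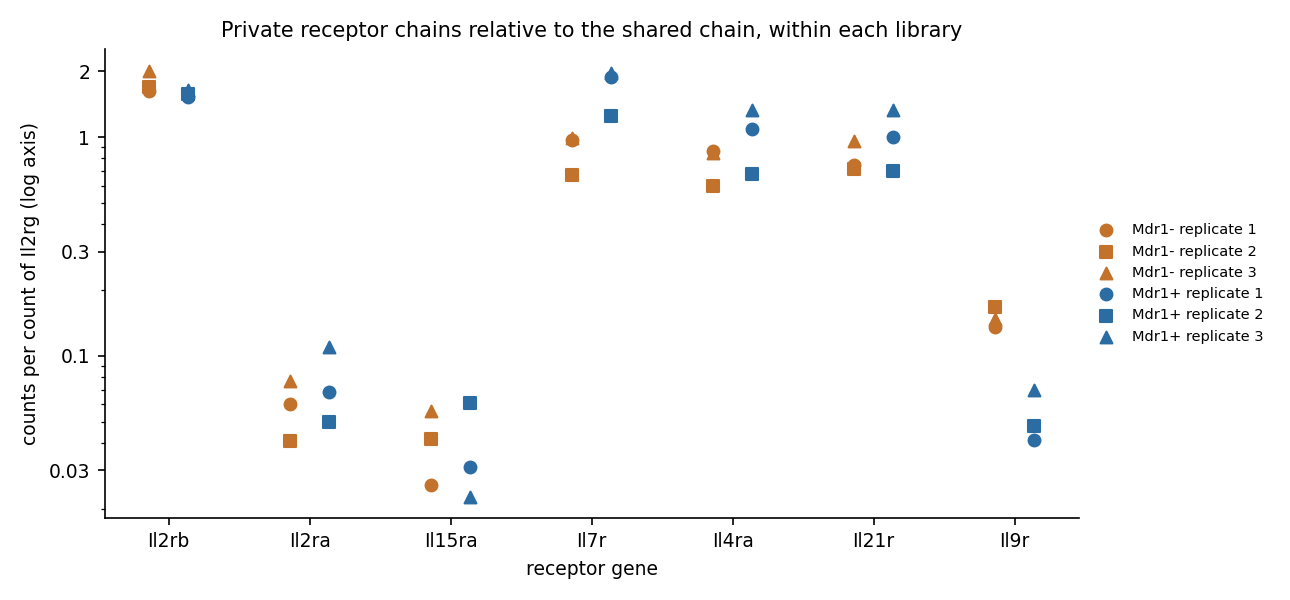
Counts of each other receptor gene per count of Il2rg in the same library (y axis, log scale) for 7 genes (x axis). Colours are the groups and symbols the replicate numbers. Il2rb is drawn with the private chains although 2 receptors share it. Il7r is higher and Il9r lower in all 3 Mdr1+ libraries than in any Mdr1- library, and the other 5 genes overlap.

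Levels of different receptors can be set side by side only per length. As CPM per kilobase of annotated exon, the order in Mdr1- cells was Il2rg (259 ± 18.8, SD, n = 3 as in the next values), Il2rb (178 ± 10.2), Il21r (137 ± 15.5), Il7r (107 ± 23.5), Il4ra (63.1 ± 13.6), Il9r (14.3 ± 1.5), Il15ra (7.62 ± 2.29) and Il2ra (4.88 ± 1.34). Neighbours in that order overlapped between libraries for Il21r and Il7r and for Il15ra and Il2ra. In Mdr1+ cells the order was Il2rg (314 ± 27.6), Il7r (249 ± 41.6), Il21r (205 ± 46.2), Il2rb (194 ± 14), Il4ra (102 ± 24.9), Il15ra (8.99 ± 5.45), Il2ra (7.50 ± 2.41) and Il9r (6.09 ± 1.32). There Il7r, Il21r and Il2rb overlapped from one to the next, as did Il15ra, Il2ra and Il9r. Il7r thus ranked 4 of 8 in Mdr1- and 2 of 8 in Mdr1+ cells, and Il9r ranked 6 and 8, with libraries that overlapped those of Il15ra and Il2ra in Mdr1+ cells. The lengths are from GENCODE M21 on GRCm38, whereas the counts were made on mm9 with an annotation not given in the sources used here, so this order is approximate.

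The 8 genes lie on 5 chromosomes, and 2 pairs of them are neighbours. On GRCm38, Il4ra (chr7:125552120-125579474) and Il21r (chr7:125603429-125633570) stand on the same strand, 24.0 kb apart, with no annotated gene between them. Their profiles over the 6 libraries, as log2 CPM centred on each gene's mean, differed by a root mean square of 0.161. That was the second smallest of the 28 pairs of receptors, after Il2rb and Il2rg (0.129). Il2ra, on another chromosome, was nearly as close to Il4ra (0.177) and to Il21r (0.184). Il2rb and Il2rg each varied little over the libraries (root mean square of the profile 0.099 and 0.17), which keeps their difference small. A link between position and profile was not tested. Il2ra (chr2:11642807-11693193) and Il15ra (chr2:11705290-11734317) also share a strand with no annotated gene in the 12.1 kb between them. Their profiles differed by 0.859, which ranked 22nd. The pair farthest apart was Il7r and Il9r (1.289). The remaining genes are Il7r (chr15:9505788-9530176), Il2rb (chr15:78479256-78495271), Il9r (chr11:32187541-32200279) and Il2rg (chrX:101264378-101268255). The annotation has other genes that overlap Il2rg (Gm20489, protein coding, same strand, 3878 bases), Il4ra (Gm44876, opposite strand, 1342 bases) and Il2ra (Gm37881, same strand, 421 bases). The overlap with Gm20489 covers the whole span of Il2rg. The library kit was a stranded one, and the strand setting of the counting is not given in the sources used here. Reads shared with these genes therefore cannot be told apart, which also limits the ratios to Il2rg above.

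The promoters of the 2 receptors that passed in both fits are shown because these genes moved in opposite directions. Each runs 5′ to 3′ on the gene's strand from 250 bases before to 50 after the start site (RefSeq, GRCm38.p6), and 7 of the 8 receptors had an entry. Capitals mark matches on either strand to the letters TTCNNNGAA (bound by STAT proteins), GTAAACA (Foxo), TGTGGTT (Runx) or AGGAAGT (Ets), and no 2 of these matches overlap. The Il7r promoter is chr15:9529827-9530126 and the Il9r promoter is chr11:32200230-32200529, both on the minus strand. The RefSeq start used for Il7r lies downstream of the GENCODE start of that gene (9530176). Its whole window is thus inside the GENCODE gene span, and by that annotation its matches lie in transcribed sequence. The Il9r window spans the GENCODE start of its gene (32200279).
Il7r: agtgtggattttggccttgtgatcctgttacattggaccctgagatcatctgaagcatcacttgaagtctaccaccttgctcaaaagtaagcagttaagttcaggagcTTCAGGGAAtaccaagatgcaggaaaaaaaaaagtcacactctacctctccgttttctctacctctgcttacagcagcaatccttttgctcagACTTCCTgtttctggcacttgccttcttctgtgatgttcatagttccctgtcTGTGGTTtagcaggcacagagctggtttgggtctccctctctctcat
Il9r: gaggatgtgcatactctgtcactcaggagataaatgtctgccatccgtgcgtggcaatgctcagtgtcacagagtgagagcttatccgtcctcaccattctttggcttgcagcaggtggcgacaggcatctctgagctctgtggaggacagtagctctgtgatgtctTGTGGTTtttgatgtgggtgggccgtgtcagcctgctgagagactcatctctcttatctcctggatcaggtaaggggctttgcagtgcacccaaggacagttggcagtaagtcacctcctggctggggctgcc
The Il7r window held 1 match each to the STAT, Ets and Runx letters, starting at -142, -49 and 3 counted from the RefSeq start site. The Il9r window held 1 match to the Runx letters at -83. Of all 32851 promoters of this length, 8.3% held the STAT letters, 9.35% the Ets letters, 5.27% the Runx letters and 3.65% the Foxo letters. Neither window held the Foxo letters, which among the receptors were found in that of Il21r at -38. A match is a description of the sequence only.

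The genes whose profiles over the 6 libraries were nearest to that of Il7r included the gene behind the sort. In the set of 7354 genes whose mean log2 CPM reached 4, Abcb1a, which encodes Mdr1, had the smallest root mean square difference from Il7r (0.133 on the log2 scale), followed by Fasl, which encodes Fas ligand (0.156), the phosphodiesterase gene Pde4d (0.201), the helicase gene Ddx60 (0.202) and Parp12 (0.207). Of these, Abcb1a (log2 fold change 1.37 ± 0.25, adjusted p = 0.0237) and Fasl (1.49 ± 0.21, adjusted p = 0.00815) passed without the block. Nearest to Il9r were Art2a-ps (0.15), Fen1, a nuclease gene of DNA replication (0.188), Psat1, a gene of serine synthesis (0.189), Dap (0.193) and Nav2 (0.199), of which all but Nav2 passed (adjusted p = 0.00577 to 0.0232). This measure takes in the difference between the groups, so a gene that changed little could not be near either receptor. The cells were sorted on export by Mdr1, so the design itself favours a group difference in Abcb1a. It also takes in the differences between replicates, so the choice favours genes with the receptor's replicate pattern. Art2a-ps is named as a pseudogene, and its reads may be shared with related genes.

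**Figure D4:**
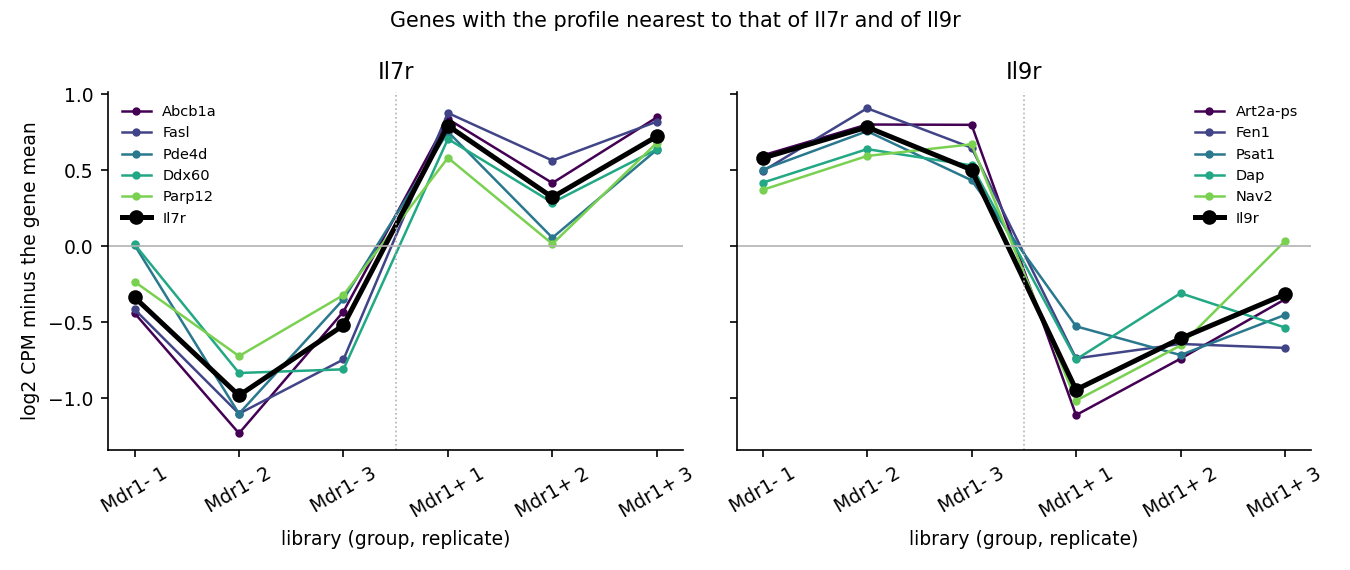
Log2 CPM minus the gene's own mean (y axis) in the 6 libraries (x axis) for Il7r (left, black) and Il9r (right, black) with the 5 genes of the nearest profile to each. Abcb1a and the other 4 genes on the left have their lowest value of each group in replicate 2, as Il7r has. They were chosen for likeness over these same libraries, which favours a shared replicate pattern.

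The cytokines themselves were scarce or variable in these cells. Of 7 ligand genes, 3 could be tested, 0 passed with group only and 1 fell with the block, where 6.57% of all genes tested did. That gene was Il21, at 169, 46.6 and 64.7 CPM in Mdr1- and 66.3, 18.3 and 7.07 CPM in Mdr1+ libraries, lower in each pair (-1.57 ± 0.70, adjusted p = 0.425, against -1.66, adjusted p = 0.00424 with the block). Its receptor gene Il21r thus differed in the opposite direction in the same fit. Il2 was at 34.9, 5.62 and 5.43 CPM in Mdr1- and 17.8, 5.0 and 9.43 CPM in Mdr1+ libraries (-0.54 ± 0.76, adjusted p = 0.844), with the highest value of each group in replicate 1. Il4 did not pass either (-0.77 ± 0.50, adjusted p = 0.623). Il7 and Il15, which are made mainly by stromal and myeloid cells, had at most 17 and 6 counts in a library. Tslp, an epithelial cytokine whose receptor also uses Il7r, had 0 counts in all 3 Mdr1+ libraries and 6, 8 and 7 counts in the Mdr1- libraries, too few to test. Its other receptor chain, Crlf2, did not pass (0.22 ± 0.34, adjusted p = 0.862), and Il13ra1 and Il13ra2, partner chains of Il4ra and of interleukin 13, had at most 8 and 3 counts.

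All 9 genes of the kinases and STAT proteins below the receptors were tested, 0 passed without the block, and 2 rose with it (Jak1 and Stat3), where 5.81% of all genes tested did. In the fit with group only, all 9 log2 fold changes were above 0, with a median of 0.23 against 0.04 over all genes. Jak1, the kinase carried by most of the private chains, was at 880.3, 729 and 950.0 CPM in Mdr1- and 1078, 917 and 1155 CPM in Mdr1+ libraries (0.30 ± 0.18, adjusted p = 0.596, and 0.0302 with the block). Jak3, the kinase of the gamma chain, did not pass (0.23 ± 0.23, adjusted p = 0.766, and 0.219 with the block), nor did Stat5a (0.24 ± 0.27) and Stat5b (0.13 ± 0.19), which act below the receptors for interleukins 2, 7 and 15. Stat3, used by the interleukin 21 receptor, passed with the block (0.38, adjusted p = 0.0194), and Stat6, used by the interleukin 4 receptor, did not (0.34, adjusted p = 0.0715). Among 12 inhibitors of Janus kinase signalling 0 passed without the block and 2 rose with it (against 5.81% of all genes), Socs3 (642.5 ± 35.4 against 387 ± 38.8 CPM, SD, n = 3 each), whose adjusted p was 0.0586 with group only and 0.0021 in the blocked fit, and Socs5 (0.59, adjusted p = 0.0317 with the block). Cish, a feedback inhibitor that STAT5 induces, was higher in every Mdr1+ library (94.7, 117 and 166 against 93.1, 84.1 and 94.4 CPM), in the closest pair of libraries by 94.7 against 94.4 CPM, but missed the threshold in both fits (0.47 ± 0.22, adjusted p = 0.448 and 0.0881).

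Of 18 genes known to respond to interleukins 2, 7 or 15, 2 rose without the block (Bcl2 and Ccnd2), where 0.275% of all genes tested did, and 0 fell. With the block 6 rose, where 5.81% of all genes did, and 0 fell. The list's median log2 fold change in the fit with group only was 0.35. Bcl2, the survival gene that interleukin 7 is known to sustain in T cells, was at 271, 236 and 227 CPM in Mdr1- and 499.8, 587 and 669 CPM in Mdr1+ libraries, with no overlap (1.26 ± 0.18, adjusted p = 0.00836). Ccnd2, a cyclin of the G1 phase, was at 187, 156 and 176 CPM in Mdr1- and 313, 328 and 383 CPM in Mdr1+ libraries, again with no overlap (0.98 ± 0.17, adjusted p = 0.0191). With the block Mcl1 (0.44), another survival gene, the kinase gene Pim2 (0.56), Ifngr1 (0.78), a receptor chain for interferon gamma, and Prf1 (1.67), which encodes perforin, also rose. Bcl2l1, Pim1, Myc, Ccnd3 and Gzmb did not pass in either fit. The members of this list answer to other signals as well, and none of these values measures signalling.

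**Figure D5:**
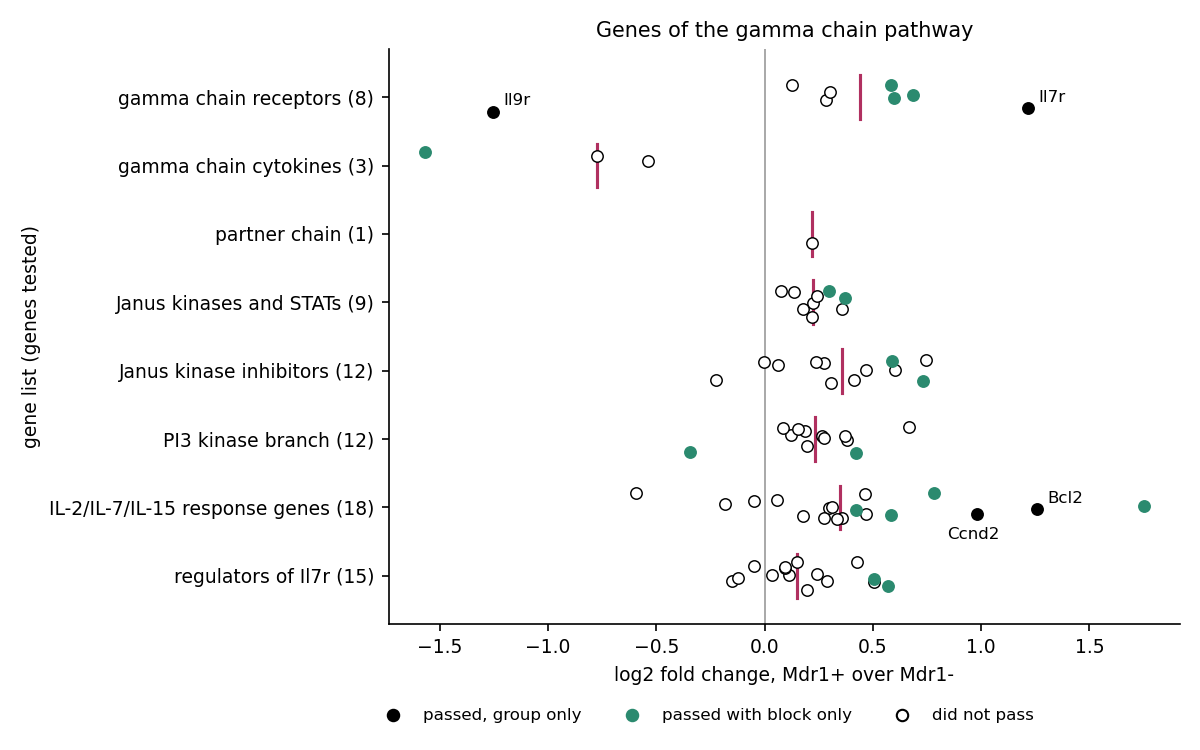
Log2 fold change of Mdr1+ over Mdr1- (x axis, fit with group only) of every tested gene of 8 pathway lists (y axis, number tested in parentheses); points are genes, black where they passed with group only, green where they passed only with the replicate block, and red bars are list medians. Il7r, Bcl2 and Ccnd2 are the black points above 0 and Il9r is the black point below 0.

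Of 15 transcription factors known to act on Il7r, 0 passed without the block. With it 2 rose, where 5.81% of all genes did, Foxp1 (0.57, adjusted p = 0.00725) and Runx3 (0.50, adjusted p = 0.0372). In the fit with group only the list's median was 0.15. For Foxo1, an activator of Il7r in resting T cells, the value was 0.11 ± 0.22 (adjusted p = 0.89), for Ets1 0.15 ± 0.21 (adjusted p = 0.844) and for Gfi1, a repressor of Il7r, -0.12 ± 0.21 (adjusted p = 0.876). In the branch through PI3 kinase 12 genes were tested and 0 passed without the block, while with it 1 rose, Pik3r1 (0.42), where 5.81% of all genes did, and 1 fell, Akt1 (-0.35), where 6.57% did. Cd27, a costimulatory receptor of naive and memory T cells, rose with the block (0.91, adjusted p = 0.00273) and did not pass without it (adjusted p = 0.304).

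Other features of the libraries moved with the groups. Of 15 cell cycle genes 14 fell in Mdr1+ cells without the block, where 1.95% of all genes tested did, and 0 rose. The exception was Pcna (-0.50, adjusted p = 0.52). The summed level of the 15 genes was 635 to 776 CPM in Mdr1+ and 2494 to 3732 CPM in Mdr1- libraries. Their part in the differences of Il7r and Il9r was not tested. T cell identity genes did not move with the groups (0 of 13 passed in either fit, median 0.05 with group only). Of 9 myeloid and dendritic genes found by name 1 could be tested, Lyz2, which missed the threshold with group only and fell with the block (-2.52, adjusted p = 0.0461). The summed level of the list was 1.26 to 6.59 CPM in Mdr1+ and 4.93 to 85.4 CPM in Mdr1- libraries, with the highest in replicate 3. Myeloid cells also express Il2rg, Il4ra and Il15ra, and the part of these transcripts in the receptor values was not tested. Of 6 B cell genes 3 were tested, and 0 passed without the block. With it 1 rose, Cd22, where 5.81% of all genes tested did. The B cell list summed to 11.1 to 22.8 CPM in Mdr1+ and 6.58 to 11.1 CPM in Mdr1- libraries. Cd8a and Cd8b1 together were at most 2.21 CPM. In innate lymphoid and NK cells 8 genes were tested, many of which T cells also use. Without the block 1 rose (Eomes), where 0.275% of all genes tested did. With it 2 rose (Eomes and Klrk1), where 5.81% did. The list summed to 557 to 759.8 CPM in Mdr1+ and 455 to 561 CPM in Mdr1- libraries. With no overlap between groups, 3 were higher in Mdr1+ libraries (Klrb1c, Klrk1 and Eomes), against 8.71% of all genes tested. In the other direction 1 was lower with no overlap (Kit), against 11.0%. Ncr1, an NK cell gene on the list, had at most 0.14 CPM. The part of innate lymphoid and NK cells in the receptor values was not tested. Of 4 tested regulatory T cell genes 0 passed in either fit. Of 6 tested epithelial and stromal genes 1 rose without the block, where 0.275% of all genes tested did, and 1 fell, where 1.95% did. The riser was Cdh1 (2.04 ± 0.41, adjusted p = 0.0382). Acta2 fell, at 4.35, 6.4 and 4.08 CPM in Mdr1- and 0, 0.28 and 0 CPM in Mdr1+ libraries (adjusted p = 0.018). The part of epithelial and stromal cells in the receptor values was not tested. In sorted bulk samples, fewer cells with a transcript and less of it in each cell cannot be told apart.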

How the data were processed

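The authors deposited raw read counts per gene symbol in 1 table. Per the submitters' processing notes, the tools were TopHat, HTSeq and DESeq2 and the build was mm9; the sources used here give neither versions, annotation nor strand setting. HTSeq's classes of unassigned reads, present for replicates 1 and 2, were left out of every total and test; there, 67.0% to 73.2% of entries had no unique alignment and 13.2% to 19.7% lay in no feature. Totals in genes ran from 2220691 (Mdr1+ replicate 3) to 20771456 (Mdr1+ replicate 2), so that a floor of 3 counts equals 0.144 to 1.35 CPM, counting error only.

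The counts of replicate 3 were first assigned to the gene names sorted without regard to case. Their Spearman correlations across genes with replicates 1 and 2 were 0.424 to 0.46 as deposited and 0.926 to 0.962 after that step, against 0.957 to 0.969 among the other 4 libraries.

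Tests used edgeR 4.0.16 in R 4.3.3 on the counts of all 6 libraries: TMM scaling, filterByExpr by group, the robust quasi-likelihood F test, and Benjamini-Hochberg adjustment over all 10897 genes tested, with a threshold of 0.05. The scripts were tested on simulated data. Deviations from the group means (log2 CPM, prior count 2) correlated across genes at 0.409, 0.568 and 0.213 between libraries of the same number, and the numbers were treated as pairs. That pairing comes from the data, not the labels. The 20 alternatives included DESeq2 1.42.0, other scalings and filters, and each library or number left out.

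Groups were taken from sample titles. Members and gene lists were chosen with earlier results of these data known. All 8 members were named, with list genes past the threshold in either fit, every ligand, and the 5 nearest profiles to each receptor that passed; other list genes named, and Il13ra1, Ncr1, Cd8a and Cd8b1, were chosen after their values were seen. The list of memory and naive surface genes is not reported in full here.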

Additional observations from a re-analysis of the deposited data

How the results depend on the processing

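All 8 receptors kept the sign of their log2 fold change under the 20 alternatives, except Il15ra, which was -0.33 without the Mdr1+ library of replicate 2, -0.30 without replicate 2, and -0.23 with the replicate block and without replicate 2, against 0.74 without replicate 3. Il7r ranged from 1.05 to 1.35 and passed in 13 of the 20, and Il9r ranged from -1.49 to -1.16 and passed in 12. With the replicate block, receptors that rose went from 1 to 4 and all genes from 30 higher and 212 lower to 633 and 716. The block without each number in turn, added after seeing the data, gave 3 to 6 receptors that rose and 1 that fell. It gave 436, 259 and 1131 genes higher and 694, 392 and 1347 lower without numbers 1, 2 and 3. Those fits have few libraries from which to estimate spread, so passing in them is weak support. Leaving out 1 library or 1 number without the block gave 0 to 1 receptors that rose, 0 to 1 that fell, 0 to 15 genes higher and 0 to 196 lower. The 0 genes in edgeR without replicate 3 compare with 237 higher at an unadjusted p under 0.05. DESeq2 called 102 genes higher and 378 lower, and no low-count filter gave 52 higher. In the deposited row order edgeR called 0 genes higher and 0 lower, 0 receptors in either direction, and 8 genes higher at an unadjusted p under 0.05. Other scalings moved the median of all genes by less than 0.1. Depth limits Il15ra most, with 23 counts in the shallowest library.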

Other observations

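Read as deposited, without placing replicate 3 in case-insensitive order, the receptor rows would hold other genes' counts for that replicate. The row named Il7r has 0 counts for Mdr1+ replicate 3 and 4 for Mdr1- replicate 3, where the re-ordered columns give 1997 and 2342. The row named Il4ra has 0 and 0, against 1356 and 1994, and the row named Il9r has 0 and 0, against 71 and 349. In that order Il7r and Il9r kept their signs (log2 fold changes of 1.18 and -1.48), and each had an adjusted p of 1.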
